A study of Homo sapiens with 6 samples.

Results

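Transcript levels of 39 genes that build, modify or crosslink the extracellular matrix were compared between STUB1 knockout and control HaCaT cells. The 39 genes were 14 matrix glycoproteins, 6 proteoglycans, 9 collagen chains and 10 enzymes or chaperones that modify or crosslink matrix proteins. They were matched by symbol to 39 of the 20014 Ensembl genes in the deposited table, and 27 had a mean of at least 1 FPKM (fragments counted per gene, scaled to transcript length and library size) and entered the test. HaCaT is an immortalized human keratinocyte line. The 3 knockout libraries came from cells transduced with a lentiviral CRISPR vector carrying a guide against STUB1, and the 3 control libraries from cells given the same vector with a control guide, which the labels call WT. Neither group had a further treatment, and cells were sorted into plates and colonies screened by STUB1 immunoblot. Nothing in the labels tells whether a group's 3 libraries came from separate clones or cultures. The p-values then measure only spread among these 6 libraries, which may be technical.

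Keratinocytes rest on a basement membrane, a sheet in which laminin and type IV collagen networks are joined by nidogens and by the heparan sulfate proteoglycans perlecan and agrin. Anchoring fibrils of type VII collagen fasten that sheet to the dermis, and in healing wounds keratinocytes also meet a provisional matrix with fibronectin and tenascin-C. Collagen chains are hydroxylated on lysine by PLOD enzymes, glycosylated and folded in the endoplasmic reticulum, and collagens are crosslinked outside the cell by lysyl oxidases.

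STUB1 itself, an E3 ubiquitin ligase that works with chaperones, measured 21.6, 24.7 and 23.2 FPKM in knockouts 1 to 3 and 37.8, 41.9 and 52.7 FPKM in controls 1 to 3. Every knockout library lay below every control library (log2 fold change -0.89, SE 0.116; limma, Benjamini-Hochberg adjusted p = 0.00125). An edit need not remove the mRNA, so this checks the labels only in part. Library sizes estimated from the steps between low values ran from 45.5 to 52.5, in units of 1e6 reads. Control 3 stood apart: relative to the mean library, its log2 level had a slope of -0.104 per doubling of exonic length, and the other 5 had slopes of -0.00941 to 0.0349. On the same measure the slope per 10 percentage points of GC content was 0.0118 to 0.135 in the knockout libraries, highest in knockout 2, and -0.1 to -0.0369 in the control libraries. The mitochondrial share of the summed FPKM was 26.2% to 30.8% in knockout libraries against 20.9% to 26.8% in control libraries, and its part in the results was not tested. Of 9 keratinocyte markers 8 were tested, with a summed level of 981 to 1139 FPKM, but KRT14, the basal partner of KRT5, stood at 0.162 to 0.328 FPKM. Of those 8, 1 rose (12.5%, against 9.58% of all tested genes), 2 fell (13.3% of all tested genes did) and 5 did not pass. The basal keratin KRT5 rose 1.77-fold, and the adhesion protein EPCAM and the desmosomal protein PERP fell to 62.9% and 70.6% of control (limma, adjusted p = 2.67e-04, 0.00430 and 0.00946). On the log2 scale PERP fell by 0.49 and the 46 tested genes within 10 Mb had a median of -0.53. EPCAM fell by 0.66, with a median of -0.10 over 57 such genes. The 13 fibroblast markers summed to 6.14 to 9.10 FPKM, of which TWIST2 made up 5.64 to 8.63. The other 12 were under 1 FPKM, and COL1A2, COL3A1, DCN and LUM were at most 0.0160 FPKM in any library. The 7 melanocyte markers summed to 6.48 to 7.66 FPKM, the 8 leukocyte markers to at most 0.936 and the 6 endothelial markers to at most 3.06.

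Promoter windows from 250 bases before to 50 bases after the start of transcription were taken from RefSeq (GRCh38.p14) and matched 33 of the 39 genes, with 39 windows, but not AGRN, COL5A2, COL8A1, EFEMP1, LOXL2 or MATN2. Shown are the windows of FN1 and TNC, the tested members with the largest rises, and of SRPX, the tested member with the largest fall. The stretch shared by the COL4A1 and COL4A2 windows is also shown. The type IV collagen genes are a known pair read in opposite directions from a common promoter, and the other windows were chosen after the values were seen. Capitals mark the TATA core TATAA, the CCAAT box, the GC box GGGCGG and the cAMP response element TGACGTCA. Both strands were searched, so a match on the other strand shows as its reverse complement. Each is written 5′ to 3′ on the gene's strand, and for the collagen pair on the plus strand, that of COL4A2.
FN1, chr2:215436019-215436318, minus strand: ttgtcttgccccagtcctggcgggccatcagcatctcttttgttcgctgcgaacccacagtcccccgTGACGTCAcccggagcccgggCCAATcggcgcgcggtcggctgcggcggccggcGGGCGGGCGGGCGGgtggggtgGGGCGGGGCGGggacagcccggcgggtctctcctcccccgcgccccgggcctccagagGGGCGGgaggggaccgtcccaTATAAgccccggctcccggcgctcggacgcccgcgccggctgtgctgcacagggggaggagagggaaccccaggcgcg
TNC, chr9:115118108-115118407, minus strand: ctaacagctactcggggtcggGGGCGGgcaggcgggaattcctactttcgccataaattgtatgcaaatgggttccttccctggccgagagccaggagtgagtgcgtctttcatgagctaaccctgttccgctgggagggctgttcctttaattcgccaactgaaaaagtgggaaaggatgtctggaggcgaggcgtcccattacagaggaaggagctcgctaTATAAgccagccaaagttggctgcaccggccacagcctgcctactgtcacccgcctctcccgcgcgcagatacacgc
SRPX, chrX:38220822-38221121, minus strand: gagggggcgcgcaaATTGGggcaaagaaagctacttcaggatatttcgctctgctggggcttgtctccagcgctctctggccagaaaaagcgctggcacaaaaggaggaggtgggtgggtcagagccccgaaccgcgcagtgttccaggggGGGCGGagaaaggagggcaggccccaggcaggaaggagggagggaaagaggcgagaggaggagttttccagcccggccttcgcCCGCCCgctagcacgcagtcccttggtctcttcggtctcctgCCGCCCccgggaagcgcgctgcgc
COL4A1 and COL4A2, chr13:110307108-110307333, plus strand: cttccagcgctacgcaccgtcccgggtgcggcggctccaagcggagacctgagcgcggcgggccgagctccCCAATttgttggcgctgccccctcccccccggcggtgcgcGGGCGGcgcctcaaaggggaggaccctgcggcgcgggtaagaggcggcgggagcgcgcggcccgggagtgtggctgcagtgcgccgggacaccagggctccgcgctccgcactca

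In GENCODE 29 on GRCh38, FN1 (ENSG00000115414) spans chr2:215360440-215436172, TNC (ENSG00000041982) chr9:115019578-115118257 and SRPX (ENSG00000101955) chrX:38149336-38220924. The gene bodies of COL4A1 (ENSG00000187498) and COL4A2 (ENSG00000134871) overlap by 1422 bases at chr13:110305812-110307233, with 0 exonic bases in common. The FN1 window held TATAA with its first base 28 bases before the start, CCAAT, TGACGTCA and 6 GC boxes, some of which overlap each other. The TNC window had TATAA at 27 bases before the start and 1 GC box, and SRPX had CCAAT and 3 GC boxes without TATAA. The COL4A1 and COL4A2 starts lie 127 bases apart, and their shared 226 bases held CCAAT and 1 GC box. Among the 39 windows, 32 held a GC box (82.1%, against 45.0% of all 35116 windows), 12 CCAAT (30.8% against 34.6%), 10 TATAA (25.6% against 20.4%) and 2 TGACGTCA (5.13% against 1.8%). The AP-1 letters TGANTCA were in 1 window (2.56% against 7.7%), the TEAD letters GGAATG in 5 (12.8% against 14.0%) and the NF-kB consensus in 7 (17.9% against 11.3%), none of them those of FN1, TNC, SRPX or the collagen pair. These matches describe letters and not bound sites. The 35116 windows were not limited to expressed genes or matched to the members for GC content.

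Most matrix genes that could be tested were higher in the knockout. In these bulk libraries more cells expressing a gene and more RNA per cell cannot be told apart. Of the 27 tested members, 18 rose, 2 fell and 7 did not pass (limma on log2(FPKM + 1), Benjamini-Hochberg adjusted p under 0.05 over 11262 tested genes). Over all tested genes 9.58% rose and 13.3% fell, whereas 66.7% of the tested members rose. Members were chosen with earlier results of these data known, so this contrast may in part reflect that choice. The median log2 fold change was 0.37 over the tested members and -0.01 over all tested genes. In 20 of the 27 every knockout library lay above every control library, in 2 every one lay below, and in 5 the groups overlapped. Over all tested genes the groups did not overlap in 45.6%, with 20.4% above and 25.3% below. None of the 27 had a mean under 1 FPKM in either group, so none was tested only through its higher group. Without control 3 the counts were 19 higher and 4 lower with a median of 0.30, against 2103 and 2418 of all 11262 tested genes. Without knockout 2, knockout 3 or control 1 the number higher was 11, 10 and 11, against 391, 462 and 572 of all genes. With GC content and length adjusted for in each library, 15 were higher and 4 lower, with a median of 0.18; over all genes 13.9% were then higher and 14.8% lower. Pairing same-numbered libraries in a replicate block on top of that adjustment left 13 members higher and 3 lower. Of all 11177 genes in that fit, 1354 were higher and 1510 lower.

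**Figure D1:**
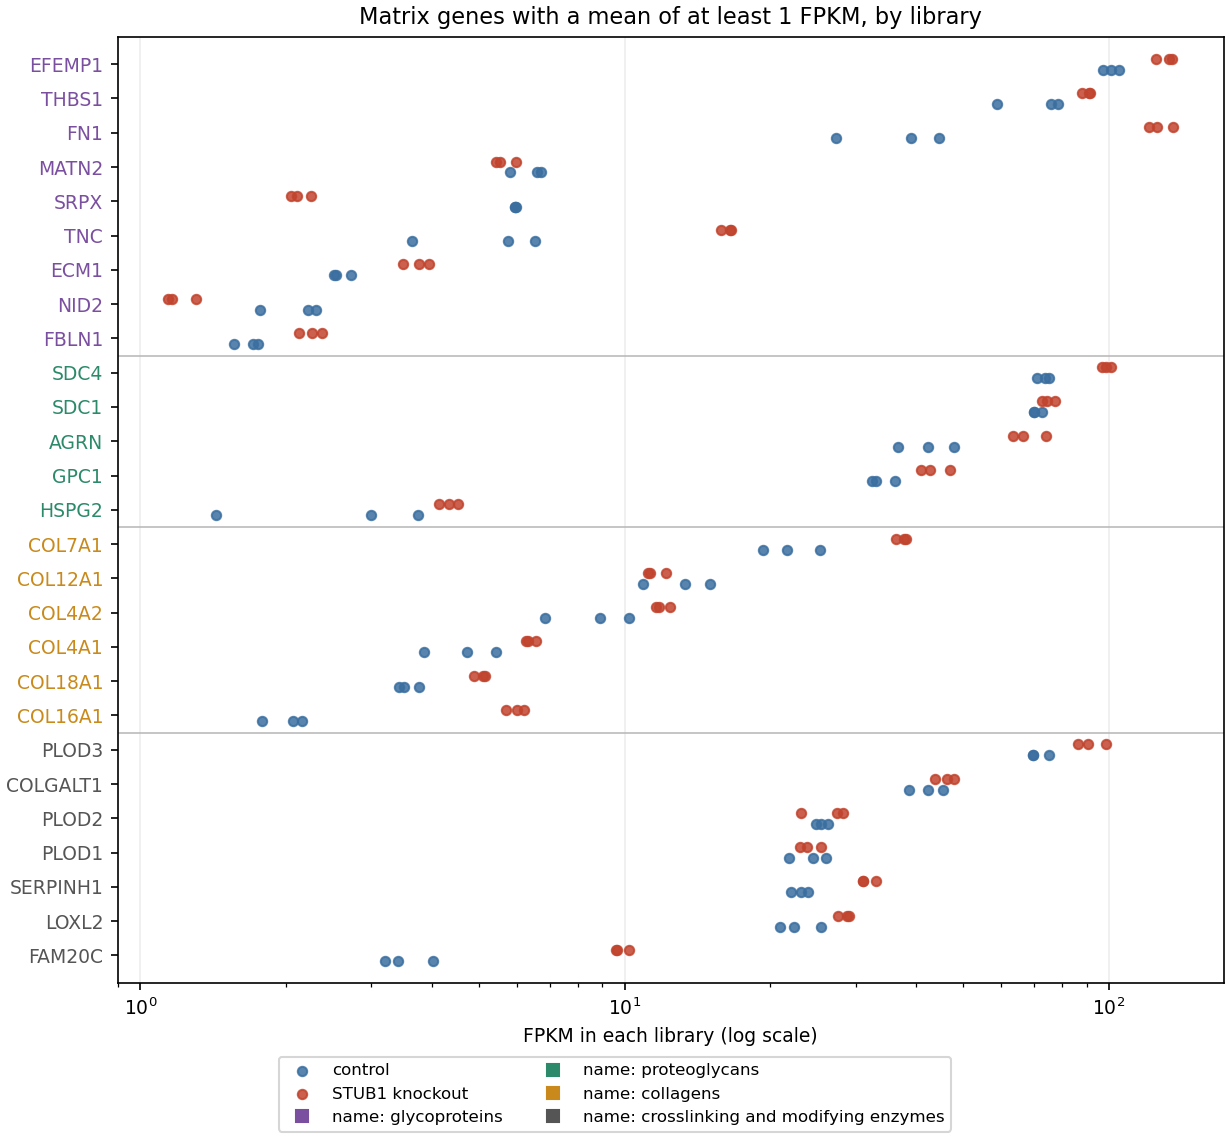
FPKM (log axis) of the 27 tested matrix genes in each library, 1 point per library, blue for control and red for knockout, with names coloured by role and ordered by control mean within a role. FN1, TNC, COL16A1 and FAM20C show the widest gaps to the right, SRPX and NID2 the opposite order, and PLOD1, PLOD2 and COL12A1 overlap.

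Summed over the 39 genes, the level was 1009 ± 13.7 FPKM in knockout libraries against 725 ± 48.6 FPKM in control libraries (both SD, n = 3). FN1 made up 12.7% ± 0.791 (SD, n = 3) of that sum in the knockout and 5.06% ± 0.901 (SD, n = 3) in the control. With FN1 left out the sums were 882 ± 15.6 and 688 ± 39.9 FPKM, so the gap was not that of FN1 alone. By role, glycoproteins summed to 381 ± 11.7 against 234 ± 24.6 FPKM, proteoglycans to 290 ± 13 against 223 ± 9.95, collagens to 78.7 ± 0.789 against 54.2 ± 7.76 and enzymes to 260 ± 8.14 against 214 ± 9.53. These sums are descriptions without a test.

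Among the glycoproteins, 6 of 9 tested genes rose, 2 fell and 1 did not pass. FN1, fibronectin, which binds integrins, collagens and fibrin, measured 136, 126 and 121 FPKM in knockouts 1 to 3 and 39.0, 44.7 and 27.3 FPKM in controls 1 to 3. Its lowest knockout value was far above its highest control value, and control 3 was the lowest library. The change was 3.45-fold by the means (log2 fold change 1.79, SE 0.153; limma, adjusted p = 1.71e-04). TNC, tenascin-C, an oligomeric glycoprotein that is scarce in resting skin and abundant in wounds, measured 16.5, 16.6 and 15.8 FPKM in the knockout and 5.74, 6.53 and 3.64 FPKM in the control. The groups did not overlap and control 3 was again lowest, for a 3.08-fold rise (log2 fold change 1.49, SE 0.155; limma, adjusted p = 4.42e-04). Both kept their call under each of the 15 alternatives, and without control 3 their log2 values were 1.59 and 1.28.

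EFEMP1, the short fibulin also called fibulin-3, was the most abundant glycoprotein in the control. It measured 135, 125 and 133 FPKM in the knockout and 105, 101 and 97.4 FPKM in the control, a 1.30-fold rise with no overlap (log2 fold change 0.37, SE 0.0713; limma, adjusted p = 0.00697). Smaller rises were those of THBS1, thrombospondin-1, an activator of latent TGF-beta (71.1 ± 10.8 to 90.2 ± 1.75 FPKM, SD, n = 3, limma adjusted p = 0.0456), ECM1, a secreted protein mutated in lipoid proteinosis (2.59 ± 0.113 to 3.73 ± 0.228 FPKM, limma adjusted p = 0.00501), and FBLN1, fibulin-1, a basement membrane and elastic fibre component (1.67 ± 0.0966 to 2.25 ± 0.119 FPKM, limma adjusted p = 0.0179). THBS1 did not pass when any 1 knockout library or control 1 was left out (limma, adjusted p 0.0599 to 0.138), nor without a filter or when rescaled to transcripts per 1e6 (TPM), at 0.0852 in both fits. FBLN1 lost its call without knockout 2, knockout 3 or control 1 (0.0522 to 0.0788), and EFEMP1 without knockout 3 (0.0508). FBLN1 stood at 0.12 on the log2 scale with GC and length adjusted (adjusted p = 0.325), from 0.28 before it. THBS1 stood at 0.22 on the log2 scale without control 3, from 0.35 with it. It shares 448 exonic bases with FSIP1 on the opposite strand.

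The falls were those of SRPX and NID2. SRPX, a secreted sushi-repeat protein encoded on chromosome X, measured 2.05, 2.25 and 2.11 FPKM in the knockout and 5.96, 5.95 and 5.95 FPKM in the control. The controls were nearly equal and all lay above the knockouts, for a 2.79-fold lower level (log2 fold change -1.15, SE 0.0667; limma, adjusted p = 2.65e-05). The 36 tested genes within 10 Mb had a median of -0.22, and all of them lay above SRPX. An unnamed gene annotated across SRPX on the opposite strand (ENSG00000250349), with which it shares 0 exonic bases, also fell (log2 fold change -0.60 by limma). NID2, nidogen-2, which links laminin to type IV collagen, measured 1.14, 1.30 and 1.16 FPKM in the knockout and 2.31, 2.22 and 1.77 FPKM in the control, 57.2% of the control mean (log2 fold change -0.49, SE 0.0824; limma, adjusted p = 0.00384). It shares 1915 exonic bases (30.0% of its own) with RTRAF on the opposite strand, which also fell (log2 fold change -0.35 by limma), and no strand setting is given in the sources used here, so reads of that stretch cannot be told apart. MATN2, matrilin-2, had 5.64 ± 0.278 against 6.37 ± 0.502 FPKM with overlapping groups (log2 fold change -0.15, limma adjusted p = 0.203). It passed on the lower side without control 3 (adjusted p = 0.0295), with array weights, which let noisier libraries count less (0.00138), and with GC and length adjusted (0.0250). A block that pairs same-numbered libraries on top of that adjustment took the call away (0.0517). Of all 11262 tested genes, 2418 were lower without control 3 and 3298 with array weights, whose fitting stopped before converging.

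**Figure D2:**
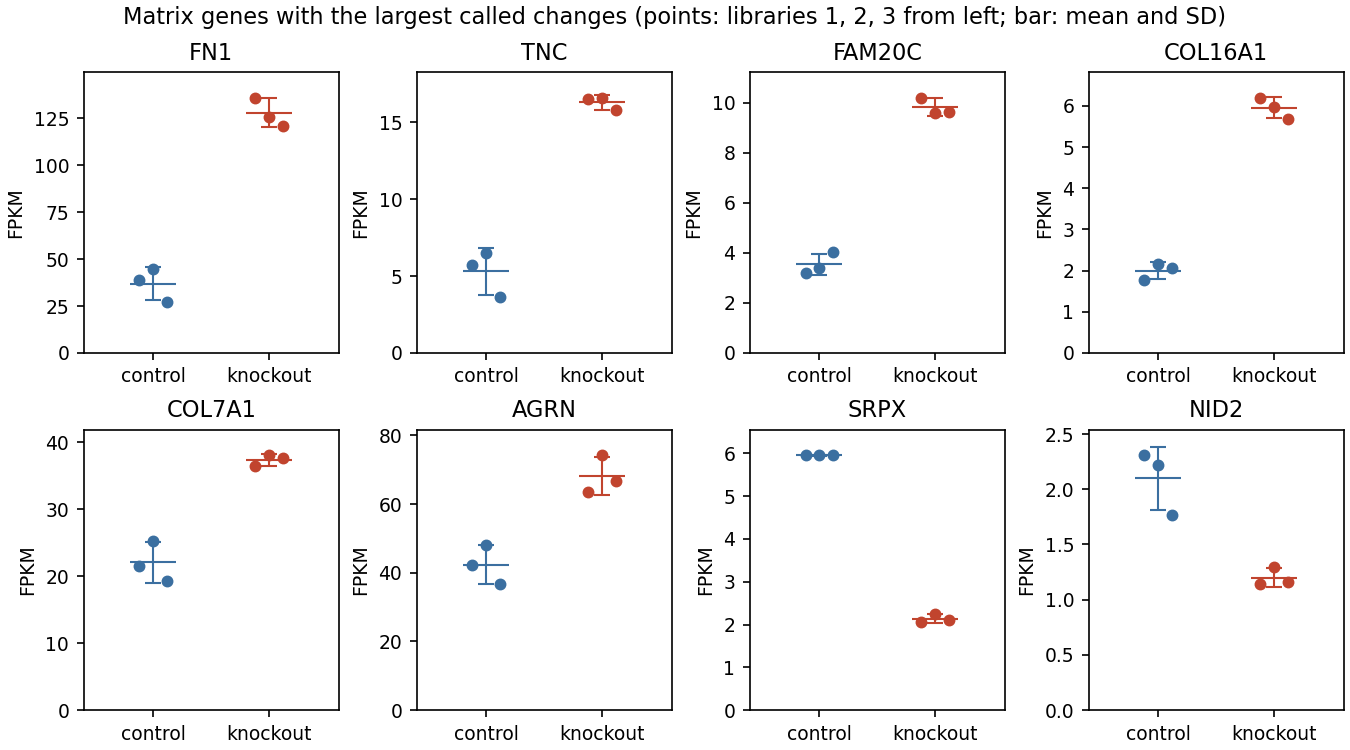
FPKM on linear axes that start at 0 for the 8 tested matrix genes with the largest called changes, with points for libraries 1, 2 and 3 from left to right in each group and a bar for the mean and SD (n = 3). In each panel the groups do not overlap; FN1, TNC, COL7A1 and AGRN are lowest in control 3, which FAM20C and COL16A1 are not.

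Among the proteoglycans, 3 of 5 tested genes rose, none fell and 2 did not pass. In all 5 every knockout library lay above every control library, as in 20.4% of all tested genes. For SDC1 the gap was only that of 72.8 FPKM in knockout 1 against 72.7 FPKM in control 2. SDC4, syndecan-4, a transmembrane heparan sulfate proteoglycan of focal adhesions, was the most abundant. It measured 96.8, 101 and 98.7 FPKM in the knockout and 70.9, 74.0 and 75.2 FPKM in the control, a 1.35-fold rise (log2 fold change 0.42, SE 0.0673; limma, adjusted p = 0.00285). Libraries of a group differed little for this gene, and control 3 was its highest control. AGRN, agrin, a large basement membrane proteoglycan, measured 63.5, 74.3 and 66.6 FPKM in the knockout and 42.3, 48.0 and 36.7 FPKM in the control, a 1.61-fold rise (log2 fold change 0.68, SE 0.105; limma, adjusted p = 0.00258). With GC and length adjusted AGRN kept its call at 0.35 on the log2 scale.

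GPC1, glypican-1, which is held to the membrane by a lipid anchor, rose from 33.9 ± 2.03 to 43.5 ± 3.22 FPKM (limma, adjusted p = 0.0157). It lost its call without knockout 2, knockout 3 or control 1 (adjusted p 0.0612 to 0.0706) and with GC and length adjusted (log2 fold change 0.11, adjusted p = 0.0779). HSPG2, perlecan, measured 4.34, 4.53 and 4.13 FPKM in the knockout and 3.0, 3.75 and 1.43 FPKM in the control. Control 3 was far below the other controls, and the gene did not pass (log2 fold change 0.57, SE 0.202; limma, adjusted p = 0.0707). It passed on the higher side when same-numbered libraries were paired in a replicate block (0.0171), under array weights (3.07e-04), and when control 2 (0.0103) or control 3 (0.0101) was left out. In that order these fits called 1368, 3139, 1349 and 2103 of the 11262 tested genes higher. Without control 3 the log2 value of HSPG2 was 0.29. With GC and length adjusted it was 0.19 and the gene did not pass (0.223). HSPG2 shares 2121 exonic bases (11.7% of its own) with LDLRAD2 on the opposite strand. LDLRAD2 was called higher (log2 fold change 0.28 by limma), and reads of the shared stretch cannot be told apart. SDC1, syndecan-1, the main syndecan of epidermis, stood at 74.9 ± 2.26 against 71.0 ± 1.56 FPKM and did not pass (log2 fold change 0.08, SE 0.0671; limma, adjusted p = 0.428).

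Of the 6 tested collagen chains, 5 rose and 1 did not pass. COL16A1, a fibril-associated collagen found near basement membranes, measured 6.20, 5.98 and 5.69 FPKM in the knockout and 1.78, 2.16 and 2.07 FPKM in the control. The groups were well apart, 2.98-fold by the means (log2 fold change 1.21, SE 0.0769; limma, adjusted p = 4.55e-05), and control 1, not control 3, was lowest. COL7A1, the chain of the anchoring fibrils, was the most abundant of the 9 collagens, at 36.4, 38.1 and 37.7 FPKM in the knockout and 21.6, 25.3 and 19.3 FPKM in the control. It rose 1.69-fold (log2 fold change 0.74, SE 0.0966; limma, adjusted p = 0.00125), and by 0.44 on the log2 scale with GC and length adjusted. Both genes kept their call under each alternative that tested them.

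COL4A1 and COL4A2, the chains that make the common type IV collagen of basement membranes, rose by like amounts. COL4A1 measured 6.55, 6.27 and 6.33 FPKM in the knockout and 4.73, 5.43 and 3.85 FPKM in the control. COL4A2 measured 11.6, 12.4 and 11.8 FPKM against 8.90, 10.2 and 6.85 FPKM. In both genes control 3 was lowest and control 2 highest among the controls, without overlap between the groups. Their log2 fold changes were 0.39 and 0.44 (limma, adjusted p = 0.0257 and 0.0294), and the ratio of COL4A2 to COL4A1 was 1.87 ± 0.104 (SD, n = 3) in the knockout and 1.85 ± 0.0584 (SD, n = 3) in the control. Both calls were lost when any 1 knockout library or control 1 was left out (COL4A1 adjusted p 0.0596 to 0.0986, COL4A2 0.0555 to 0.131) and without a filter (0.0596 and 0.0669), and that of COL4A1 also as TPM (0.0517). With GC and length adjusted their log2 values were 0.17 and 0.08, with adjusted p of 0.0393 and 0.205 (0.0733 and 0.261 with the replicate block).

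COL18A1, a basement membrane collagen whose end is the source of endostatin, stood at 3.57 ± 0.179 FPKM in the control and rose to 5.04 ± 0.140 FPKM (log2 fold change of 0.40, adjusted p = 0.00427 by limma). It shares 1401 exonic bases with SLC19A1 on the opposite strand, and with GC and length adjusted its log2 value was 0.12 (adjusted p = 0.177). COL12A1, another fibril-associated collagen, was the only tested chain among the members with a value below 0. It stood at 11.6 ± 0.518 against 13.1 ± 2.04 FPKM with overlapping groups (log2 fold change -0.15, limma adjusted p = 0.319). It passed on the lower side without control 3 (adjusted p = 0.00675), with array weights (0.00106) and with GC and length adjusted (0.0239, and 0.0357 with the replicate block). The fit without control 3 called 2418 of the 11262 tested genes lower, and that with array weights 3298. COL12A1 lies on a stretch of chromosome 6 where the 36 tested genes within 10 Mb had a median of -0.42, and it stood above 86.1% of them.

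Of the 7 tested enzymes and chaperones, 4 rose and 3 did not pass. FAM20C, a kinase of the secretory pathway that phosphorylates secreted and matrix proteins, measured 10.2, 9.61 and 9.64 FPKM in the knockout and 3.20, 3.40 and 4.02 FPKM in the control. All knockouts were above all controls, 2.78-fold by the means (log2 fold change 1.26, SE 0.0849; limma, adjusted p = 6.02e-05), and control 3 was the highest control. SERPINH1, the collagen-specific chaperone HSP47, was at 23.1 ± 0.926 FPKM in the control and rose to 31.7 ± 1.20 FPKM (log2 fold change of 0.44, adjusted p = 0.00269 by limma). Both kept their call under each alternative. LOXL2, the lysyl oxidase that crosslinks type IV collagen, rose from 22.9 ± 2.28 to 28.5 ± 0.798 FPKM (limma, adjusted p = 0.0282), a call lost when any 1 knockout library or control 1 was left out (0.0702 to 0.109), and as TPM (0.0704). With GC and length adjusted, LOXL2 stood at 0.16 on the log2 scale, from 0.31, and did not pass when the replicate block was added (0.0779).

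The lysyl hydroxylases differed among themselves. PLOD3, which also glycosylates hydroxylysine, was the most abundant, at 86.5, 98.9 and 90.6 FPKM in the knockout and 69.6, 75.3 and 69.8 FPKM in the control. It rose 1.29-fold without overlap (log2 fold change 0.36, SE 0.0780; limma, adjusted p = 0.0125), and lost its call without knockout 2, knockout 3 or control 1 (0.0511 to 0.0575). With GC and length adjusted its log2 value was 0.18. PLOD3 shares 429 exonic bases (7.56% of its own) with ZNHIT1 on the opposite strand. ZNHIT1 averaged 140 FPKM and did not pass (log2 fold change 0.08 by limma), and reads of the shared stretch cannot be told apart. PLOD1, which acts on the triple helix, stood at 24.0 ± 1.20 against 24.2 ± 2.13 FPKM (log2 fold change -0.01, SE 0.0832; limma, adjusted p = 0.967). PLOD2, which acts on the telopeptides where crosslinks form, stood at 26.2 ± 2.76 against 25.5 ± 0.747 FPKM (log2 fold change 0.03, SE 0.0868; limma, adjusted p = 0.814). The transcript of PLOD2 has a GC content of 34.4%, the lowest of the tested members, and with GC and length adjusted PLOD2 passed on the higher side (log2 fold change 0.24, adjusted p = 0.00750, and 0.0207 with the replicate block). PLOD3 made up 64.6% ± 2.35 (SD, n = 3) of the summed PLOD level in the knockout and 59.0% ± 0.727 (SD, n = 3) in the control. COLGALT1, which adds galactose to hydroxylysine, stood at 46.1 ± 2.20 against 42.1 ± 3.42 FPKM and did not pass (log2 fold change 0.13, limma adjusted p = 0.277).

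**Figure D3:**
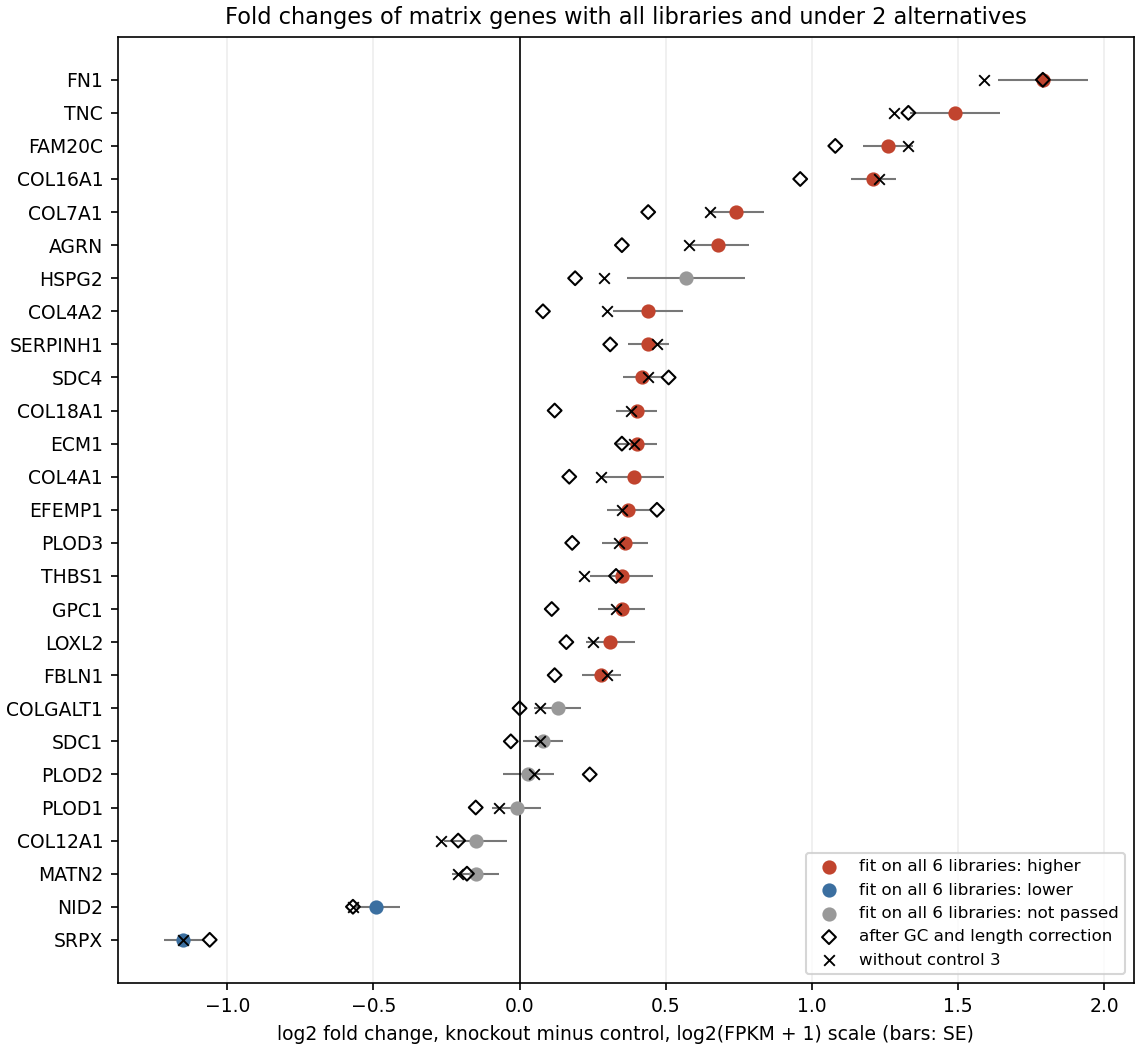
Log2 fold changes (knockout minus control, log2(FPKM + 1) scale) of the 27 tested matrix genes, with circles and SE bars for all 6 libraries coloured by call, open diamonds with GC and length adjusted and crosses without control 3. Diamonds lie left of the circles for COL4A2, COL18A1 and GPC1 and right of the circle for PLOD2, while FN1 stays at 1.79.

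The other 12 members had a mean under 1 FPKM, and 8 of them stayed under 0.2 FPKM in every library. SPARC, VCAN (versican), COL8A1, COL5A2, LOXL4, THBS2, NID1 and FBN1 made up that group, and SPARC, a collagen-binding glycoprotein of connective tissue, was listed at 0 in all controls and in knockout 1. The fibrillin FBN2 and LOX, the founding lysyl oxidase, stood at 0.842 ± 0.0204 against 0.637 ± 0.101 FPKM and at 0.532 ± 0.107 against 0.572 ± 0.0474 FPKM. COL5A1, a chain of fibril-nucleating type V collagen, measured 0.369, 0.338 and 0.358 FPKM in the knockout and 0.0670, 0.0900 and 0.0430 FPKM in the control, 5.33-fold by the means. The lysyl oxidase LOXL1 measured 0.646, 0.754 and 0.567 FPKM against 0.357, 0.294 and 0.367 FPKM. In the fit without a filter, in which 6.27% of 16782 genes were higher, COL5A1 and LOXL1 passed (log2 fold changes 0.35 and 0.30, limma adjusted p = 7.58e-04 and 0.00907), and the other 10 did not. The usual partner of the COL5A1 chain in type V collagen is encoded by COL5A2, which measured at most 0.0730 FPKM in any library.

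The members were longer and richer in GC than most genes. The 27 had a median exonic length of 6933 bases and a median GC content of 57.0%, against 4951 bases and 48.3% over all tested genes. Across 11177 tested genes, which share the same 6 libraries, log2 fold change and GC content had a Pearson's r of 0.397, and across the 27 members it was 0.197. Control 3 was the lowest library for 15 of the 27 (55.6%), against 30.8% of all tested genes. Of the 18 members that rose, 14 were also higher with GC and length adjusted, and COL18A1, COL4A2, FBLN1 and GPC1 were not, while PLOD2 was higher only after it. COL4A1 and LOXL2 also did not pass once the replicate block was added to the adjustment. By position, the members are spread over many chromosomes. The median of tested genes within 10 Mb exceeded 0.1 for 4 members and was below -0.1 for 4 others, SRPX, NID2, COL12A1 and PLOD2.

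**Figure D4:**
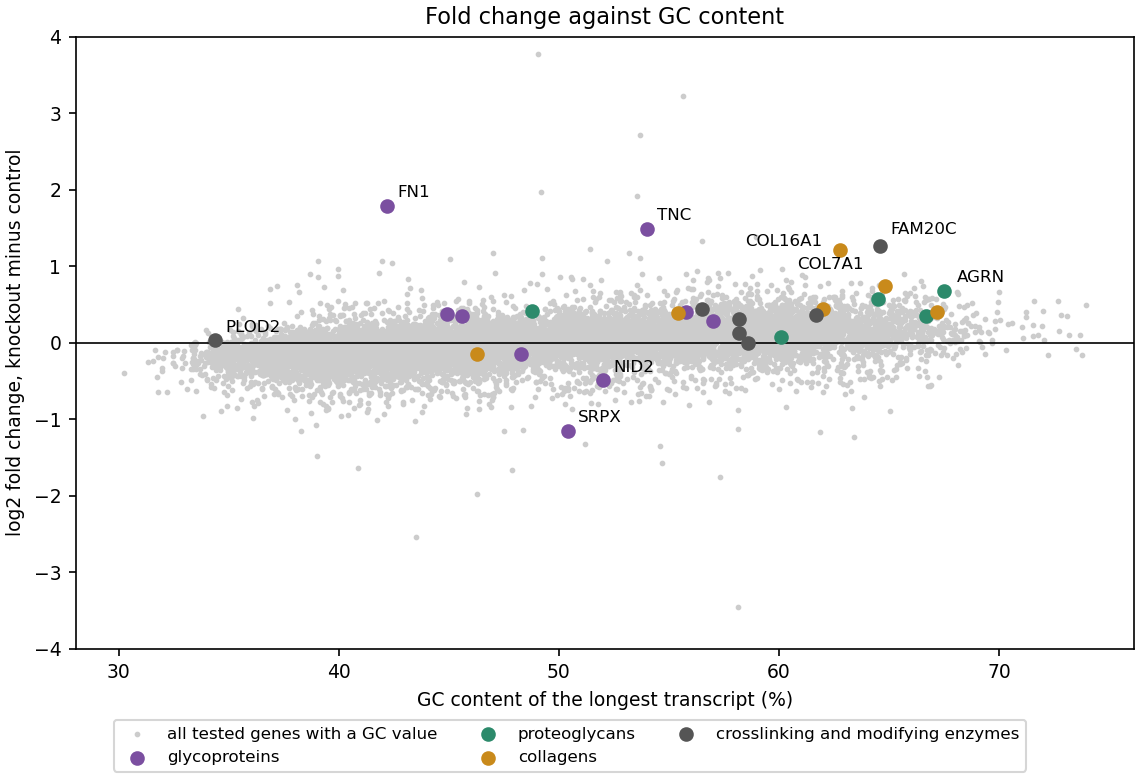
Log2 fold change (knockout minus control) against the GC content of the longest transcript, with 11177 tested genes in grey and the 27 tested matrix genes coloured by role. Grey points drift upward with GC content; FN1, at 42.2% GC, and TNC, at 54.0%, lie well above that band, and SRPX and NID2 lie below 0.

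Other genes of collagen synthesis moved in both directions. Of 17 tested genes that modify, fold, export or trim procollagen, 4 rose (23.5%, against 9.58% of all tested genes), 2 fell and 11 did not pass, with a median log2 fold change of -0.02. PCOLCE, which enhances procollagen C-proteinase, rose 1.79-fold, P3H2, a prolyl 3-hydroxylase, rose 1.44-fold, BMP1, the procollagen C-proteinase itself, rose 1.54-fold, and SEC24D, of the coat that exports procollagen, rose 1.25-fold (limma, adjusted p = 0.00103, 0.00267, 0.00709 and 0.0299). TMEM38B, an endoplasmic reticulum cation channel, and P4HB, a subunit of prolyl 4-hydroxylase, fell to 69.4% and 84.6% of control (limma, adjusted p = 0.00463 and 0.0460). The 140 tested genes within 10 Mb of P4HB had a median log2 fold change of -0.38, and P4HB, at -0.24, stood above 76.4% of them. TMEM38B stood at -0.49, with a median of -0.01 over 82 such genes. P4HA1 and P4HA2, the catalytic subunits that pair with P4HB, had log2 values of -0.10 and -0.02 and did not pass.

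Of 35 other collagen chains 30 were under the filter, and of the 5 tested COL17A1, the transmembrane collagen of hemidesmosomes, rose from 75.0 ± 14.3 to 122 ± 1.18 FPKM (limma, adjusted p = 0.00479) and 4 did not pass. COL17A1 measured 79.6, 86.5 and 59.0 FPKM in controls 1 to 3, lowest in control 3. Of 15 tested further glycoproteins and proteoglycans, 7 rose (46.7%), 1 fell and 7 did not pass, with a median of 0.21. Control 3 was the lowest library for 8 of the 15, against 30.8% of all tested genes. Alternative fits are not given for the genes of these other lists, beyond the fit without a filter for COL9A2, COL26A1 and SMOC2. TGFBI, a TGF-beta-induced adhesion protein, rose from 179 ± 4.80 to 320 ± 4.78 FPKM, and the syndecan SDC3 and the latent TGF-beta binding proteins LTBP1 and LTBP4 rose 2.05-fold, 1.72-fold and 1.61-fold (limma, adjusted p = 1.69e-04, 7.77e-04, 0.00196 and 0.00240). SMOC2, a calcium-binding matricellular protein, fell to 66.1% of control (log2 fold change -0.32, limma adjusted p = 0.0421). Its mean was 0.976 FPKM in the knockout and 1.48 FPKM in the control, so it entered the test only through the control. Without a filter it did not pass (limma, adjusted p = 0.0762). The 28 tested genes within 10 Mb had a median of -0.53, and SMOC2 stood above 82.1% of them.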

How the data were processed

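Poly(A)-selected RNA of 6 HaCaT libraries had been sequenced, and the authors deposited 1 FPKM value per gene and library, rounded to 3 decimals. Tools named in the submitters' processing notes, without their roles, are HISAT2 2.0.5, Trimmomatic 0.36, Cufflinks, edgeR 3.6.3 and featureCounts 1.6.3, and the build named is GRCh38.p13. The strand setting, the annotation and any rescaling of libraries were not given in the sources used here. FPKM is no count, so no count test or counting interval was computed. Of 303 to 353 low values per library, 59.0% to 65.7% lay within 0.15 of a whole read, so reads were not recovered and depth is an estimate.

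Genes with a mean of at least 1 FPKM were tested on log2(FPKM + 1), which understates changes of low genes, with limma 3.58.1 in R 4.3.3, genotype as the only term, an intensity trend and Benjamini-Hochberg adjustment at 0.05. The exact permutation test of 3 against 3 cannot go under 0.1. The fit was tested on simulated data with known shifts. Those data held no GC, length or library effects, so that test says nothing about such effects here. Plots used Python 3.11.15 with matplotlib 3.10.9. Members and lists were chosen with earlier results of these data known. The text gives every library's value for members past the threshold with an absolute log2 value of at least 0.5 and for the 3 most abundant. It also does so for some others chosen after their values were seen. From each other list it names up to 4 called genes with the smallest p. SEC24D, P4HB, P4HA1, P4HA2, COL9A2, COL26A1 and SMOC2 were chosen after their values were seen. Symbols came from an identifier table for 19991 genes and from GENCODE 29 for 23, and positions, lengths and GC content from GENCODE 29 on GRCh38. Older symbols left 1 of 28 collagen synthesis genes unmatched.

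Replicate numbers are shared between groups. Libraries with the same number deviated together from their group means, with correlations over genes of 0.375, 0.150 and 0.188, each over 0.1. Libraries with different numbers had correlations of -0.31 to 0.0665. Deviations within a group of 3 are tied to each other, so these values cannot decide whether the numbers pair the libraries. No label gives a shared day or batch. Values in the text come from the unpaired fit unless a replicate block is named. Alternatives were a pseudocount of 0.1, no filter or one at 5 FPKM, TPM, median scaling, array weights, the replicate block, a loess correction for GC content and length with or without that block, and leaving out each library.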

Additional observations from a re-analysis of the deposited data

How the results depend on the processing

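Of the 20 called members, 11 kept their call under every alternative that tested them and 12 under every fit that left out 1 library. The number of members higher ran from 10 to 19 and lower from 2 to 4 over the fits without 1 library, with medians of 0.30 to 0.40. Lower calls numbered 4 with GC and length adjusted, 4 with array weights and 0 at a filter of 5 FPKM, which removed SRPX and NID2. The median log2 value was 0.30 without a filter and 0.18 with GC and length adjusted, with or without the replicate block, and the median relative to neighbours within 10 Mb was 0.34. Over all genes, 1079 rose and 1500 fell; the number higher was 706 at 5 FPKM, 667 as TPM (1622 lower) and 3139 with array weights (3298 lower), a fit whose weights stopped before converging, and it ran from 391 to 2103 (639 to 2418 lower) without 1 library. The share of higher calls was 41.8% as deposited and 29.1% as TPM. Among members that did not pass, the sign turned for SDC1 (-0.03) and COLGALT1 (-0.00) with GC and length adjusted, with or without the block, for PLOD1 (0.01) with median scaling and for PLOD2 (-0.01) as TPM; without 1 library PLOD1 ran from -0.07 to 0.05 and PLOD2 from -0.02 to 0.12. The cause of these shifts was not tested. The replicate block gave 19 members higher and 2 lower, against 1368 and 1683 of all tested genes. It added HSPG2 (limma, adjusted p = 0.0171) and changed no other member's call. Levels under 1 FPKM limit what can be said of the 12 members outside the test.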
